A study of Homo sapiens with 4 samples.

Results

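The zinc finger genes described here are 37 of the 23228 genes with a deposited read count, the ZNF91-type Krüppel-associated box (KRAB) genes that lie in clusters on chromosomes 7, 19 and 4. They were chosen by symbol from a written list of the family, and the list was picked because ZNF117, 1 of its members, was lower after treatment in these same samples. The Vehicle group (2 samples) and the LY500307 group (2 samples, 5 µM for 24 h) both came from SKOV3, an established human ovarian cancer cell line. In both groups the cells had been sorted by FACS with the ALDEFLUOR kit, which marks aldehyde dehydrogenase activity, and grown as spheroids, and the study calls them SKOV3-ALDH+ OCSCs (ovarian cancer stem cells). LY500307 is an agonist of estrogen receptor beta. Nothing in the labels says that the 2 samples of a group were separate cultures, so each p-value measures only the spread between these samples, which may be technical.

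KRAB zinc finger proteins carry a KRAB domain near the amino terminus and a row of C2H2 fingers, each of which holds a zinc ion and reads a few bases of DNA. The KRAB domain recruits TRIM28 (KAP1), which brings in the histone methyltransferase SETDB1, HP1 proteins and histone deacetylases, and so silences the bound locus. The ZNF91-type genes multiplied by tandem duplication in the primate lineage, beside waves of new retroelements. ZNF91 represses SVA elements and ZNF93 represses a group of L1 elements, while the targets of many of their neighbours are less well described.

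The members are near relatives in sequence as well as in position. One stretch of coding sequence is shown because it occurs in 17 of the 37 members, ZNF117 and ZNF91 included, and at 34 places in the GRCh37 genome. It runs across the join between neighbouring fingers, and its capitals mark the codons of the 5-residue linker.
coding window shared by 17 members: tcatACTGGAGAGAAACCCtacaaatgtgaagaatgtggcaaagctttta
A read of 50 bases from that stretch cannot be assigned to a single gene. Most of each transcript is more distinct than this. Of all windows of 50 bases along 1 transcript per gene, the share that occurs once in GRCh37 had a median of 92.8% over the members. It ran from 53.4% in ZNF492 to 99.5% in ZNF138, and was 97.5% in ZNF117 and 77.9% in ZNF91. Within the coding sequence alone it ran from 30.5% in ZNF492 to 99.8% in ZNF718. Counts of ZNF492 are therefore uncertain. The number of C2H2 fingers read from the coding sequence by their spacing had a median of 12 over 36 members. It was 2 in ZNF138, 10 in ZNF117, 31 in ZNF91 and 36 in ZNF208. Only fingers with gaps of 2, 12 and 3 residues were counted, so these are minimum numbers.

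The promoters of the members resemble each other too. RefSeq promoters (250 bases before to 50 after the start, GRCh38.p14 table) were found for 31 of the 37 members. The 12 bases CTGTCACTCAGG, chosen as the run that the most members share, stood in 19 of those 31 (61.3%) on either strand, against 37 of all 27305 promoters (0.136%). The CCAAT box (CCAAT, either strand) stood in 30 of 31 (96.8%) against 35.7% of all promoters. ZNF91 and 4 genes that met the criteria given below are shown as examples of that layout. Each stretch runs from 140 to 21 bases upstream of the RefSeq start, with GRCh37 coordinates from a match of the sequence, and the capitals mark the 12-base run and each CCAAT box on the printed strand.
ZNF680 (chr7:64023470-64023589, minus strand): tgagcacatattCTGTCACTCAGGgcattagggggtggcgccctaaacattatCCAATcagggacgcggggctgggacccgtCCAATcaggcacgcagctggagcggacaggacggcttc
ZNF431 (chr19:21324703-21324822, plus strand): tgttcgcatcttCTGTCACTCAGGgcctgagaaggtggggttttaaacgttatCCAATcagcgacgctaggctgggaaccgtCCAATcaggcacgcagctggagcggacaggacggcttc
ZNF493 (chr19:21579795-21579914, plus strand): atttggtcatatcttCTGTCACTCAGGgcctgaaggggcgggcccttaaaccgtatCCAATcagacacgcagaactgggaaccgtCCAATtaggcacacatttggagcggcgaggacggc
ZNF492 (chr19:22816986-22817105, plus strand): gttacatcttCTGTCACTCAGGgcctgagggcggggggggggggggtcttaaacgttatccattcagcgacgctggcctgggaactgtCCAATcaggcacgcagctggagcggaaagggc
ZNF91 (chr19:23578294-23578413, minus strand): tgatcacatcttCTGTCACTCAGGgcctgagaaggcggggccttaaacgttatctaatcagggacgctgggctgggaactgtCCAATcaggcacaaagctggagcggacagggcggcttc
The 12-base run was not in the promoter of ZNF117, whose exons overlap those of the endogenous retrovirus gene ERV3-1 on the same strand. The full estrogen response element, searched as GGTCANNNTGACC on both strands, stood in 0 of 31 member promoters and in 0.0659% of all promoters. A single arm of it, GGTCA, stood in 8 of 31 (25.8%) against 37.7%, and it is contained in the full element. The GC box GGGCGG stood in 18 (58.1%) against 44.6%, and the AP-1 site TGANTCA in the promoters of ZNF138 and ZNF92 only (6.45%) against 7.76%. A missing match says only that these letters are not in this window.

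Reads counted on genes numbered 28841701 to 34943882 per sample. LY500307 replicate 2 stood further from the vehicle samples than replicate 1 did. The median absolute log2 ratio to the vehicle mean was 0.25 against 0.13 over all 14473 genes tested. Reads on no counted feature made up 25.5% in replicate 2 against 28.4% to 30.8% in the other samples. This is a share of counted, unassigned and ambiguous reads, with multiply placed reads left out. ESR2, which encodes the receptor that LY500307 binds, had 7, 8, 12 and 7 counts in Vehicle replicates 1 and 2 and LY500307 replicates 1 and 2, and ESR1 had 0 in all samples. Of 8 epithelial markers 4 were high enough to be tested. EPCAM was present at 213 CPM in vehicle (CPM is the read count of a gene scaled to the size of its library, here after TMM normalization). ERBB2 was at 49.9 CPM in vehicle, KRT18 at 24.9 and KRT8 at 0.559. KRT7, WT1 and MUC16 were too low to be tested, and PAX8 was at 0 in all samples. EIF3C, a translation factor gene that cells use generally, was also at 0 in all samples. The reason was not examined and may be particular to that gene. Whether a 0 of another gene, ESR1 and PAX8 included, reflects expression or the counting of reads on symbols is not settled. Of the leukocyte and endothelial markers PTPRC, PECAM1 and CDH5 had 0 to 4 counts, while CD68 was at 13.3 CPM. The 3 fibroblast markers were present in vehicle, COL1A1 at 186.1 CPM, DCN at 9.36 and LUM at 17.1. They did not move one way, with log2 fold changes of 0.28 in COL1A1, -0.20 in DCN and -0.10 in LUM, and their part in the results was not tested. CDKN1A, the cell cycle inhibitor p21, was higher in both LY500307 samples (log2 fold change 0.72, standard error, SE, 0.11).

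After LY500307 every member that could be fitted had a negative fold change, 26 of 26, with a median log2 fold change of -0.50 beside -0.0001 over all genes tested. The criteria were those of the study's methods, a log2 fold change of more than 0.5 in size with an unadjusted p below 0.05. Of the 26 members, 11 met them with lower counts in LY500307 (42.3%, against 1.86% of all genes tested) and 0 with higher counts (against 2.76%). In 24 of 26 both LY500307 samples lay below both vehicle samples (against 24.4% of all genes), and in 0 of 26 above both (against 24.2%). Without ZNF117, 10 of 25 members met the criteria with lower counts (40.0%). The list was chosen on this contrast, so these counts describe the genes and are not a test of them. No gene of the 14473 reached an adjusted p below 0.05 in edgeR, where 1678 had an unadjusted p below 0.05. With DESeq2, 16 genes reached it, and ZNF117, on which the list was chosen, was the only member among them. The adjusted p of the members ran from 0.422 to 0.725 in edgeR, and 20 had an unadjusted p below 0.05. Summed over all members, the level was 1173 and 1159 CPM in the vehicle samples, 968.0 in LY500307 replicate 1 and 704.8 in replicate 2. Both treated samples lay below both vehicle samples, and replicate 2 lay well below replicate 1. In a bulk sample fewer cells that use these genes and less RNA per cell cannot be told apart.

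**Figure D1:**
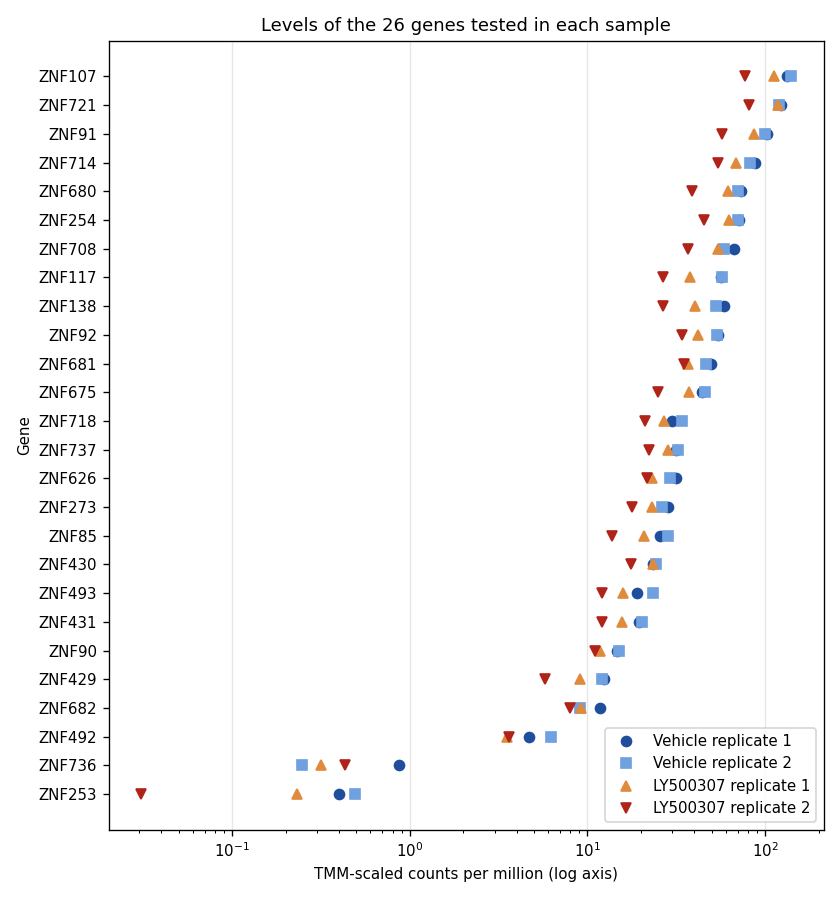
Level of each of the 26 zinc finger genes tested in each of the 4 samples, in TMM-scaled CPM on a log axis, ordered by the vehicle mean. Both LY500307 markers lie left of both vehicle markers in 24 genes, the exceptions being ZNF736 and ZNF682.

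Chromosome 7 holds ZNF117 and 7 other members, and 7 of these 8 were tested. The tested members lie close together, while the untested ZNF716 (chr7:57509883-57533265) lies apart from them. ZNF117 (chr7:64432150-64467062, minus strand, GRCh37, 4 exons) had 56.2 and 57.2 CPM in the vehicle samples, 37.5 in LY500307 replicate 1 and 26.5 in replicate 2. The groups did not overlap, and the mean went from 56.7 ± 0.747 to 32.03 ± 7.80 (SD, n = 2), a log2 fold change of -0.82 (SE 0.17). This is the value the list was chosen on, so it carries no test. ERV3-1 (chr7:64450734-64467121, minus strand), an endogenous retrovirus gene with a preserved envelope reading frame, overlaps the exons of ZNF117 by 681 bases on 1 transcript of each. It had 20.1, 20.3, 13.6 and 13.03 CPM in Vehicle replicates 1 and 2 and LY500307 replicates 1 and 2. Its 2 LY500307 values were close together and both below vehicle, and its log2 fold change of -0.60 (SE 0.14) met the criteria. Whether reads in the overlap were counted for one gene, both or neither is not given in the sources used here.

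ZNF138 (chr7:64254766-64294059, plus strand) came next after ZNF117 in fold change, apart from the low-count gene ZNF253. Its levels were 58.5 and 52.9 CPM in vehicle and 40.3 and 26.7 in LY500307 replicates 1 and 2. Its log2 fold change was -0.73 (SE 0.19, edgeR adjusted p = 0.422). ZNF107 (chr7:64126477-64171955), the member with the most counts in vehicle, had 132.3 and 140.2 in vehicle against 111.8 and 76.6, a log2 fold change of -0.53 (SE 0.17). ZNF680 (chr7:63980256-64023453, minus strand) had 73.0 and 70.4 against 61.4 and 38.8, and ZNF92 (chr7:64838712-64866049) had 54.5 and 53.2 against 41.7 and 34.1. In each of these genes replicate 2 of LY500307 was the lowest sample and replicate 1 lay between it and vehicle. The log2 fold change was -0.52 (SE 0.19) in ZNF680 and -0.51 (SE 0.13) in ZNF92. With ZNF117, these made 5 of 7 tested members of chromosome 7 that met the criteria, with a median log2 fold change of -0.53. The share was 71.4%, against 1.86% of all genes tested with lower counts, and it includes ZNF117, on which the list was chosen. ZNF273 lay outside the limit at -0.42. ZNF736 had 26, 7, 11 and 14 counts in the 4 samples, which overlap between the groups, and its log2 fold change of -0.58 (SE 0.69, edgeR adjusted p = 0.725) became 0.59 without Vehicle replicate 1.

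The large cluster near the centromere of chromosome 19 holds 26 members, of which 17 were tested, with a median log2 fold change of -0.47. Of the 17, 6 met the criteria with lower counts (35.3%, against 1.86% of all genes tested). ZNF429 (chr19:21679484-21739072) had 12.4 and 12.03 CPM in vehicle and 9.11 and 5.79 in LY500307 replicates 1 and 2. ZNF85 (chr19:21106028-21133503) had 25.7 and 28.3 against 20.8 and 13.7. The groups were apart in both genes, with the treated samples also far from each other, and the log2 fold changes were -0.71 (SE 0.23) and -0.64 (SE 0.20). ZNF493 (chr19:21579921-21610379) had 18.99 and 23.4 against 15.9 and 12.1, and ZNF431 (chr19:21324827-21378856) had 19.5 and 20.2 against 15.6 and 12.04. In ZNF493 the gap between the groups was smaller than the spread within vehicle, whereas in ZNF431 the vehicle samples were close. Their log2 fold changes were -0.59 (SE 0.18) and -0.52 (SE 0.17). ZNF675 (chr19:23708433-23870022, minus strand), which encodes a protein known to bind TRAF6 and dampen its signalling, had 44.3 and 45.8 against 37.4 and 24.9. Replicate 2 of LY500307 was again the lowest sample, and the log2 fold change was -0.53 (SE 0.19). ZNF492 (chr19:22817126-22850473) had 4.70 and 6.23 against 3.54 and 3.62 CPM. It was the exception among these genes, since its 2 LY500307 samples agreed and the vehicle samples were apart, and its log2 fold change was -0.61 (SE 0.23, edgeR adjusted p = 0.426).

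ZNF91 itself (chr19:23487793-23578273, minus strand), which gives the family its name, lay just outside the limit. It had 102.3 and 99.96 CPM in vehicle, 86.2 in LY500307 replicate 1 and 57.4 in replicate 2. The groups did not overlap, and most of the difference was in replicate 2. The log2 fold change was -0.49 (SE 0.18, edgeR adjusted p = 0.422). ZNF714 and ZNF708 followed at -0.47 each, and ZNF92 at -0.51 and ZNF680 at -0.52 were the nearest members inside the limit. Further from it were ZNF626 (-0.43), ZNF681 (-0.42), ZNF254 (-0.39), ZNF90 (-0.38), ZNF737 (-0.33) and ZNF682 (-0.28). ZNF430 had the smallest difference, with 23.4 and 24.4 CPM in vehicle against 23.3 and 17.7, a log2 fold change of -0.22 (SE 0.16, edgeR adjusted p = 0.562). Its LY500307 replicate 1 was about level with the lower vehicle sample, so the value rests on replicate 2. ZNF253 had only 12, 14, 8 and 1 counts in the 4 samples, and its log2 fold change of -1.71 carried a standard error of 0.84 (edgeR adjusted p = 0.444).

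The 3 members at the end of the short arm of chromosome 4 included 2 that were tested, and neither met the criteria. Of all genes tested, 1.86% met them with lower counts and 2.76% with higher counts. ZNF721 (chr4:419604-492945, minus strand, at least 23 fingers) had 122.9 and 119.8 CPM in vehicle against 118.2 and 80.9. Replicate 1 of LY500307 lay just below the lower vehicle sample, and the log2 fold change was -0.29 (SE 0.17, edgeR adjusted p = 0.489). ZNF718 had a log2 fold change of -0.41 (SE 0.16).

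**Figure D2:**
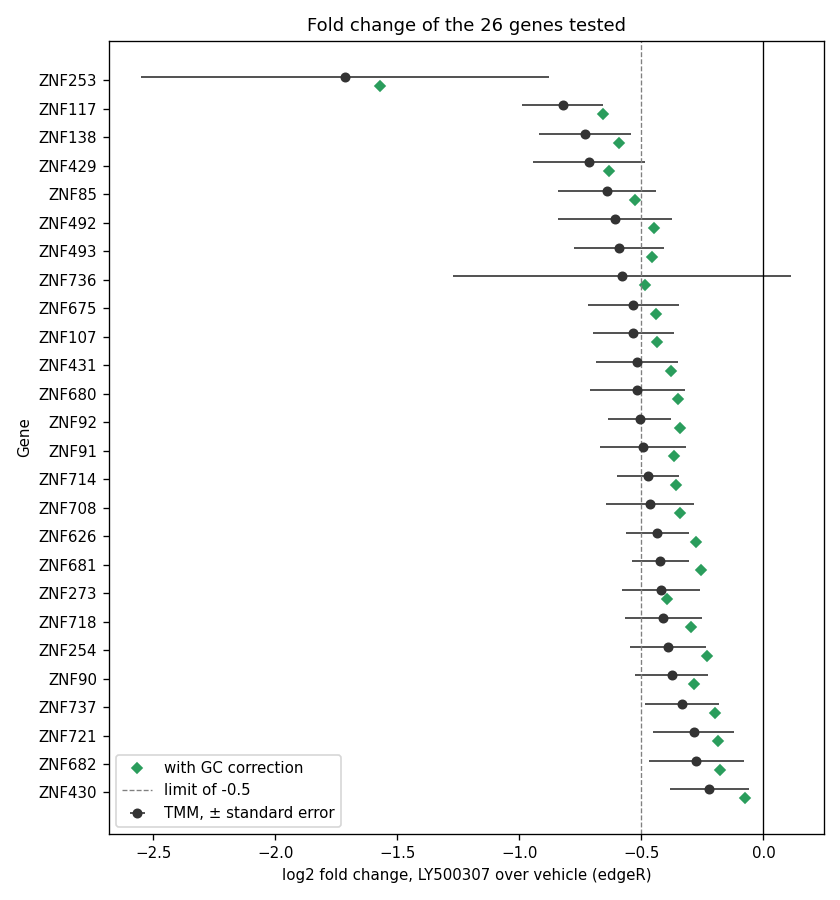
Log2 fold change (LY500307 over vehicle, edgeR) of the 26 members tested, with bars for ± 1 standard error, and the value after a correction for exonic GC content as diamonds. All 26 points lie left of 0, from -1.71 in ZNF253 to -0.22 in ZNF430, and all diamonds lie nearer to 0 than their points.

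The other 11 members had too few counts to be tested, at most 8 in a sample. ZNF99, ZNF257 and ZNF676 had 0 counts in all samples. ZNF43 had 0, 2, 0 and 3 counts in Vehicle replicates 1 and 2 and LY500307 replicates 1 and 2, and ZNF208 had 3, 0, 8 and 0. ZNF738 had 8 counts in Vehicle replicate 2, 1 in LY500307 replicate 1 and 0 elsewhere. ZNF93, ZNF100, ZNF486, ZNF716 and ZNF732 had 1 or 2 counts in a single sample. A count of 0 allows a level of up to 3 counts, which is 0.0864 to 0.106 CPM per sample. ZNF93, the repressor of L1 elements named above, had 1 count in all 4 samples together. Of all 528 deposited genes whose symbol is ZNF and a number, 39 were at 0 in all samples, and the doubt about zeros given above holds for them and for these members. Counts over the 26 tested members leave these 11 out.

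Per length, the members in vehicle ranged over more than 2 orders of magnitude. On the scale of CPM per kilobase of exon (RPKM), ZNF138 was highest at 19.5 ± 1.37 (SD, n = 2), ZNF721 had 18.98 ± 0.341 and ZNF92 had 15.3 ± 0.252. ZNF138 and ZNF721 do not differ beyond their SD, while ZNF721 and ZNF92 do. ZNF708 (14.5), ZNF680 (12.9) and ZNF107 (12.05) followed, ZNF91 stood eighth at 9.81 and ZNF117 at place 14 with 5.30 ± 0.0699. The lowest tested members were ZNF253 at 0.123 and ZNF736 at 0.0498. Of the 25 pairs of neighbours in this order, 10 lay within their SD. Counting length on 1 transcript in place of all exons moved ZNF721 to the top (25.96) and ZNF138 to place 4, so the order of the first few depends on the isoforms assumed. In LY500307 the level of ZNF138 was 11.8 ± 3.39 RPKM, that of ZNF721 15.6 ± 4.13 and that of ZNF117 2.99 ± 0.729.

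The members did not move by the same amount in the 2 treated samples. Against the vehicle mean, the median log2 ratio of the 26 members was -0.33 in LY500307 replicate 1 and -0.65 in replicate 2. Replicate 2 was below replicate 1 in 24 of 26 members (92.3%), against 49.4% of all genes tested, and the exceptions were ZNF492 and ZNF736. This order was not particular to the members. It held in 23 of 26 tested zinc finger genes of the 19q13 clusters (88.5%), on the long arm of chromosome 19. It also held in 66.5% of all tested zinc finger genes other than the members, and in 61.1% of the 20% of genes with the lowest GC content. Replicate 1 alone lay below both vehicle samples in 24 of 26 members (92.3%, against 36.4% of all genes). Replicate 2 alone did so in 25 of 26 members (96.2%, against 41.5%). In the 19q13 genes these 2 shares were 69.2% and 88.5%. In the members both treated samples showed the direction, with the larger difference in replicate 2. The part of that sample in the size of each difference is given by the values without it. Without LY500307 replicate 2, ZNF117 (-0.59) and ZNF492 (-0.62) were the 2 members that met the criteria, and 1.37% of all genes tested did so with lower counts. Without replicate 1, 20 members met them, and 6.17% of all genes. Both ratios share the vehicle samples.

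**Figure D3:**
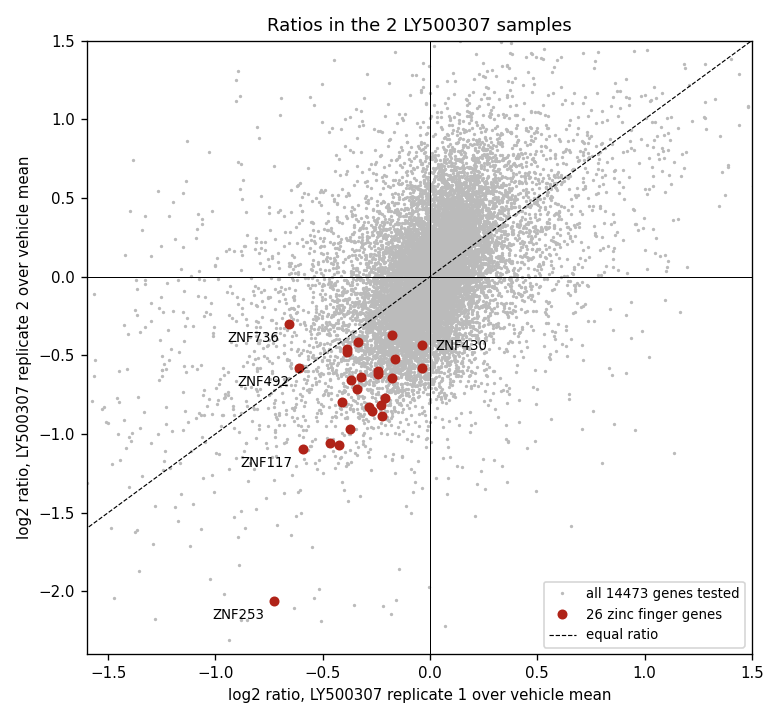
Log2 ratio to the vehicle mean in LY500307 replicate 1 (horizontal) and replicate 2 (vertical), with a pseudocount of 0.1 CPM, for the 14473 genes tested (grey) and the 26 members (red). The dashed line marks equal ratios, and 75 genes lie outside the axes. The members lie below 0 on both axes, and 24 of them below the dashed line.

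Exonic GC content moved with the fold change over all genes, and the members are AT-rich. Their median exonic GC content was 37.9% (32.2% to 45.6%) against 47.98% over the 13771 tested genes with a value. ZNF273 (45.6%), ZNF429 (41.2%) and ZNF736 (41.1%) were the only tested members above 40.8%, the upper limit of the 20% of genes with the lowest GC content. Those 2755 genes had a median log2 fold change of -0.12, and 2.94% of them met the criteria with lower counts. Of the 2755, 1994 had negative fold changes. Both LY500307 samples lay below both vehicle samples in 1238 of the 2755 and above both in 232 (against 24.4% and 24.2% of all genes). After the correction for GC content the median of the members was -0.36, and 4 met the criteria, ZNF117 (-0.66), ZNF429 (-0.63), ZNF138 (-0.59) and ZNF85 (-0.53), against 1.8% of all genes with lower counts. The part of GC content in the differences was not tested. Within the 26 members, fold change and GC content had a Spearman rho of 0.16. It was 0.18 with the vehicle level, 0.03 with exonic length and -0.28 with the share of windows that occur once, all as descriptions over genes that share reads and libraries.

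**Figure D4:**
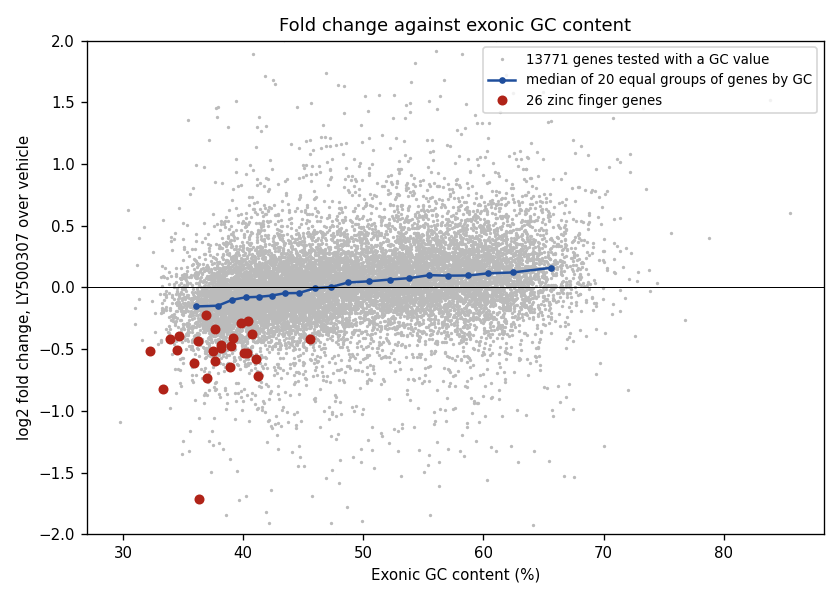
Log2 fold change (LY500307 over vehicle) against exonic GC content in percent for 13771 genes tested (grey) and the 26 members (red). The blue line joins the medians of 20 equal groups of genes, from -0.15 at 36.1% GC to 0.16 at 65.6% GC, 24 genes lie outside the axis, and the members lie below the line.

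The partners through which KRAB proteins act were measured as well. All 33 co-repressor genes listed (TRIM28, SETDB1, the HP1 genes, the NuRD and HUSH complexes and their like) were tested. Of these, 0 met the criteria in either direction, against 1.86% of all genes tested lower and 2.76% higher. Their median log2 fold change was -0.13, with 30 negative and 3 positive, TRIM28 among the 3. Both LY500307 samples lay below both vehicle samples in 18 of the 33 and above both in 2 (against 24.4% and 24.2% of all genes). TRIM28, the scaffold that the KRAB domain binds, had 387.1 and 364.7 CPM in vehicle and 399.4 and 538.2 in LY500307 replicates 1 and 2. Replicate 1 was close to vehicle and replicate 2 above it, and the log2 fold change was 0.32 (SE 0.15, edgeR adjusted p = 0.432), or 0.09 without replicate 2. SETDB1 had 101.8 and 96.5 against 87.0 and 86.8, a log2 fold change of -0.19 (SE 0.10, edgeR adjusted p = 0.447).

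Other zinc finger genes gave a measure of how far the pattern extends. In the 19q13 clusters, on the long arm of chromosome 19, 26 of 39 listed genes were tested, and 25 of the 26 had negative fold changes, with a median of -0.30. Of these, 4 met the criteria with lower counts (15.4%, against 1.86% of all genes tested) and 0 with higher counts (against 2.76%), namely ZNF880 (-0.66), ZNF836 (-0.62), ZNF160 (-0.61) and ZNF525 (-0.58). Both LY500307 samples lay below both vehicle samples in 17 of the 26 and above both in 0 (against 24.4% and 24.2% of all genes). Among all 418 tested genes whose symbol is ZNF and a number, members apart, 293 had negative fold changes, and the median was -0.11. Both LY500307 samples lay below both vehicle samples in 170 of the 418 and above both in 46. Of the 418, 11 met the criteria with lower counts (2.63%, near the 1.86% of all genes tested) and 2 with higher counts. By p, the first outside 19q13 among the 11 were ZNF121 (-0.61), ZNF606 (-0.50), ZNF214 (-0.65) and ZNF354B (-0.73). The 418 include the 26 tested genes of 19q13. The members' median of -0.50 was below those of both other lists, a difference that was not tested because the list was chosen on this contrast. The lists also differ in median exonic GC content, 37.9% in the members, 42.7% in 19q13 and 44.5% in the 418. After the GC correction their medians were -0.36, -0.22 and -0.10.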

How the data were processed

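RNA-seq counts from 2 Vehicle and 2 LY500307 samples were used. The authors deposited raw counts of reads per gene symbol, one file per sample, without normalization. Per the labels, libraries were read as 50 nt single ends. The labels name a total RNA library and the study's methods a stranded mRNA library, and which was made is not settled. The submitters' processing notes name TopHat2 2.0.8b, HTSeq and hg19. The HTSeq version, mode and strand setting are not given in the sources used here, so overlapping and near-identical genes are uncertain. Tally lines for reads on no counted feature (25.5% to 30.8%), ambiguous reads (0.661% to 0.71%) and multiply placed reads were left out.

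The fit used edgeR 4.0.16 under R 4.3.3 (TMM, filterByExpr, quasi-likelihood test, Benjamini-Hochberg adjustment over all genes tested). The standard error (SE) is the absolute log2 fold change over the square root of F. Members and gene lists were chosen with earlier results of these data known. All members are accounted for. Values in every sample are given for ZNF117, ZNF91, members that met the criteria and the 3 of highest level per length. From the other lists, up to 6 genes that met the criteria are named by p, with TRIM28, SETDB1, ERV3-1, ESR1 and ESR2. The rule also asked for members of opposite sign, of which there were 0. Any further gene was named with its values known. Alternatives were DESeq2 1.42.0, its size factors, library totals, other filters, GC and length corrections (loess, span 0.3, in each sample), a replicate block and leaving out each sample. A GRCh37 annotation gave exon length and GC content, and it matched 91.6% of 23228 symbols, 2138 of these by an older symbol. Same-numbered samples did not deviate together (correlation of deviations from group means -0.07), so no pairing was assumed. The test script was checked on simulated counts. Depth limits the lowest values, and limits from 3 counts cover counting error only.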

Additional observations from a re-analysis of the deposited data

How the results depend on the processing

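Every member fitted kept a negative fold change under each alternative except ZNF736, which was 0.59 without Vehicle replicate 1 and -1.21 without replicate 2. The stricter filter left out ZNF253 and ZNF736, so 24 members were fitted there. The members' median log2 fold change lay between -0.33 and -0.65 when each sample was left out in turn, and was -0.36 with the GC correction. The count of members meeting the criteria, 11 in the results above, was 10 with DESeq2 (1.3% of all genes were called lower in the same fit), 8 with the length correction (1.84%), 6 with library totals (1.45%), which put the median of all genes at 0.04, and 4 with the GC correction (1.8%). Leaving out 1 sample gave 2 to 20 members, 2 without LY500307 replicate 2 (1.37% of all genes) and 20 without replicate 1 (6.17%), and 9 without Vehicle replicate 1 (1.73%) or replicate 2 (1.97%). The lone sample of a group is then assumed to vary like the other group. The counts below for all genes, 19q13, other zinc finger and co-repressor genes take lower and higher together, unlike those of the members. The 13 other zinc finger genes of the results above were 11 lower and 2 higher. Each of these counts was largest without LY500307 replicate 1, where 14906 genes were tested. A large count in that fit is therefore not particular to a list. The samples share only their replicate numbers. A fit with the replicate block gave 12 members (ZNF91 added) and 717 genes in all, and the block with the GC correction gave 4. Over all genes, 669 met the criteria (59.8% higher), and 352 (42.05% higher) to 1987 (53.7% higher) did with 1 sample left out, the extremes being without LY500307 replicate 2 and without replicate 1. The adjusted p fell below 0.05 in 590 and 5002 genes in those 2 fits. The 19q13 genes meeting the criteria numbered 4, or 2 with DESeq2, the GC correction and the block with the GC correction, and 1 to 11 with a sample left out. Other zinc finger genes numbered 13, or 7 with the GC correction, 5 with the block and GC correction, and 5 to 57 with a sample left out. Co-repressor genes numbered 0, and 0 to 3 with a sample left out.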

Other observations

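Zinc finger genes that lie among or near the members but were not on the list were mostly lower in LY500307. Of 14 such neighbours, 7 were tested, 5 of them with negative fold changes and a median log2 fold change of -0.29. ZNF595, at the end of the short arm of chromosome 4, met the criteria, with 1663 and 1369 counts in vehicle against 1487 and 713 in LY500307 replicates 1 and 2. Its log2 fold change was -0.67 (SE 0.27), and -0.27 without LY500307 replicate 2. Its neighbour ZNF141 had 35.7 and 35.3 CPM in vehicle against 32.01 and 19.5, the same order of samples as in ZNF721. The 2 with the opposite sign were ZNF679 and ZNF14. ZNF679, on chromosome 7, was at 0.92 (SE 0.63), from 7 and 8 counts in vehicle against 22 and 11. ZNF14 was at 0.31 (SE 0.19), and its groups overlapped. ZNF14, ZNF141 and ZNF679 were named after their values were seen.

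Among 5 genes derived from retroelements, 3 were tested and ERV3-1 alone met the criteria. Its exons overlap those of ZNF117, as given above, so the values of these 2 genes may not be independent. ERVV-2, an envelope gene, had 2.97 and 2.81 CPM in vehicle against 2.45 and 2.20 in LY500307, a log2 fold change of -0.32 (SE 0.26, edgeR adjusted p = 0.609). L1TD1, which encodes an RNA-binding protein derived from an L1 element, had 57.3 and 62.4 against 65.6 and 39.4. Its 2 LY500307 samples lay on either side of vehicle, and its log2 fold change was -0.19 (SE 0.21, edgeR adjusted p = 0.709). ERVV-1, which was not tested, had 0 and 1 counts in vehicle against 4 and 3 in LY500307, and ERVFRD-1 had 0 counts in all samples. Reads on retroelements outside genes were not analysed here.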
